A study of Rattus norvegicus with 2 samples.

Results

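Trypsinogens are the inactive precursors of trypsin, made by the acinar cells of the pancreas. The genes described here are the trypsin family (Prss1, Prss2, Prss3, Try4, Try5 and Try10), the proteases Ctrc and Tmprss15 that process trypsinogen, and the trypsin inhibitor Spink1, 9 genes in all. They were chosen by name, with earlier results of these arrays known, and 7 of the 9 matched a target, the set of probes for 1 RefSeq record. These 7 are among 15577 genes that could be named on the array. Try5 and Tmprss15 matched none of the 26419 targets by RefSeq accession or gene ID, and whether an unnamed target reads them is not known. RNA came from AR42J, a line of rat pancreatic tumour cells with exocrine features. It was hybridised to 1 one-colour array from a culture left untreated (control) and to 1 array from a culture exposed for 20 min to taurolithocholic acid 3-sulfate (TLC-S, a sulfated bile acid) at 200 µM. Both groups were grown in Ham's F12K medium with fetal bovine serum and antibiotics. With 1 array per group there is no replicate check, no test between groups was possible, and every ratio compares these 2 arrays.

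Trypsinogen is packed into zymogen granules and carried to the gut. There enteropeptidase, the product of Tmprss15, cuts off its activation peptide, and the trypsin so formed activates the other pancreatic zymogens. Inside the acinar cell Spink1 blocks trypsin that forms too early, chymotrypsin C (Ctrc) cuts trypsinogen, and the lysosomal protease cathepsin B can activate it. Trypsinogen activation within acinar cells is a textbook early event of pancreatitis, and bile acids such as TLC-S are used to model the biliary form of that disease.

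Values are RMA intensities on a linear scale, which do not rank different transcripts by amount. Random-sequence probes gave 44.7 in control and 40.5 in TLC-S, and an intensity of 100 is the limit above which the authors listed a target. The labelled cell type was read from markers by the share at 100 or more on both arrays. This held for 0 of 11 measured acinar secretory genes other than trypsins, for 1 of 6 duct, 2 of 7 endocrine and 0 of 6 stellate and fibroblast markers, and for 6 of 8 leukocyte markers. The summed intensity of the leukocyte markers was 8583 in control and 9285 in TLC-S, and that of the acinar markers 695 and 607. Of the 11 acinar markers 9 were under 100 on both arrays, among them Cela1, Cpa1 and Pnlip. Much of the acinar sum is thus signal near the random probes, and neither sum measures an amount of cells. The part of these cell types in the results below was not tested. In bulk RNA, fewer cells of a type and less RNA per cell cannot be told apart.

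Of the family, 4 trypsin genes were bright in control and far dimmer in TLC-S. Prss1, which encodes an anionic trypsinogen, gave 5337 in control and 603 with TLC-S, 8.85-fold lower. Prss2, which encodes the other main anionic trypsinogen of the rat, gave 7536 and 856, 8.81-fold lower. Both are read by targets of curated RefSeq records. The target of Prss3 is a predicted record that the authors' annotation titles mesotrypsin, and it gave 15742 and 2183, 7.21-fold lower. Try10, a curated record, gave 470 in control and 79.9 in TLC-S, and thus at least 4.70-fold lower against the limit of 100 (5.88-fold as measured). In each of the 4 the TLC-S value lay below the control value by a log2 ratio between -3.15 and -2.56. The SD of log2 ratios between targets of a same gene was 0.42 over 580 genes, and that of all targets was 0.73.

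The 3 remaining measured members stayed near random probes on both arrays. Try4 was matched through its older name to 1810009J06Rikl, which gave 57.3 in control and 35.8 in TLC-S. Prss3 carries the same older name, so the match is not certain. Ctrc gave 39.0 in control and 51.1 in TLC-S. Spink1 gave 46.3 and 40.02. All 3 are curated records, and no fold is given because both arrays were under 100. Spink1l, a neighbouring inhibitor gene that shares the older name Spink3, gave 42.1 and 38.5. The inhibitor was therefore not detectable above the limit on either array, and neither was Ctrc.

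**Figure D1:**
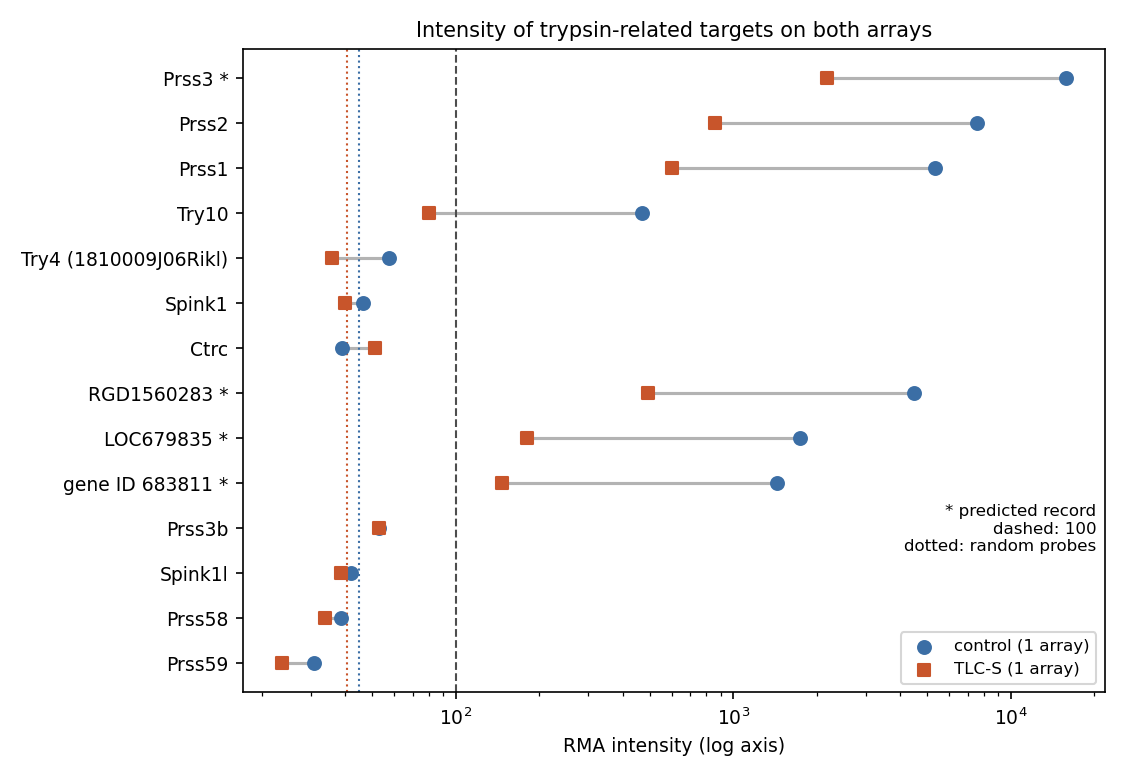
RMA intensity (log axis) of each target in control (circles) and TLC-S (squares), 1 array each, for the members, the predicted trypsin records, the namesakes Prss3b and Spink1l and the neighbours Prss58 and Prss59. The 7 trypsin targets above the dashed line at 100 in control are shifted left by a similar distance, from 5.88-fold to 9.81-fold, and the rest lie near the dotted lines of random probes.

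Of the 7 member targets, 4 were at least 2-fold lower in TLC-S and 0 at least 2-fold higher. Over all 26419 targets, 6.8% were at least 2-fold lower and 7.89% higher. A target that is bright in control can fall more readily than it can rise, and of the 12820 targets at 100 or more in control 10.2% were at least 2-fold lower and 8.77% higher. With both arrays at 100 or more, 4.41% were lower and 9.95% higher. For curated records of that kind 2.43% were lower and 11.4% higher, and for predicted records 5.68% and 9.03%. The median log2 ratio of the 5 measured trypsin genes was -2.85, beside 0.06 for all targets and 0.25 for the 11292 targets that reached 100 on each array. Among these, Prss1 was the 14th lowest ratio, Prss2 the 15th and Prss3 the 25th.

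Both arrays held many targets as bright as the trypsins, and few of them were as low in TLC-S. All 7 trypsin targets at 100 or more in control were left out of the targets compared. Within 2-fold of the control intensity of Prss1 lay 1331 other targets, with a median log2 ratio of 0.15. Of these, 6 had a ratio at or below that of Prss1. For Prss2 this was 7 of 1053, and for Prss3 it was 1 of 642, with 95% of those ratios between -0.98 and 0.92. Around Try10 it was 30 of 4641. By rank within an array, 1.33% of targets were brighter than Prss3 in control and 9.41% in TLC-S. For Prss1 these shares were 3.89% and 22.9%.

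**Figure D2:**
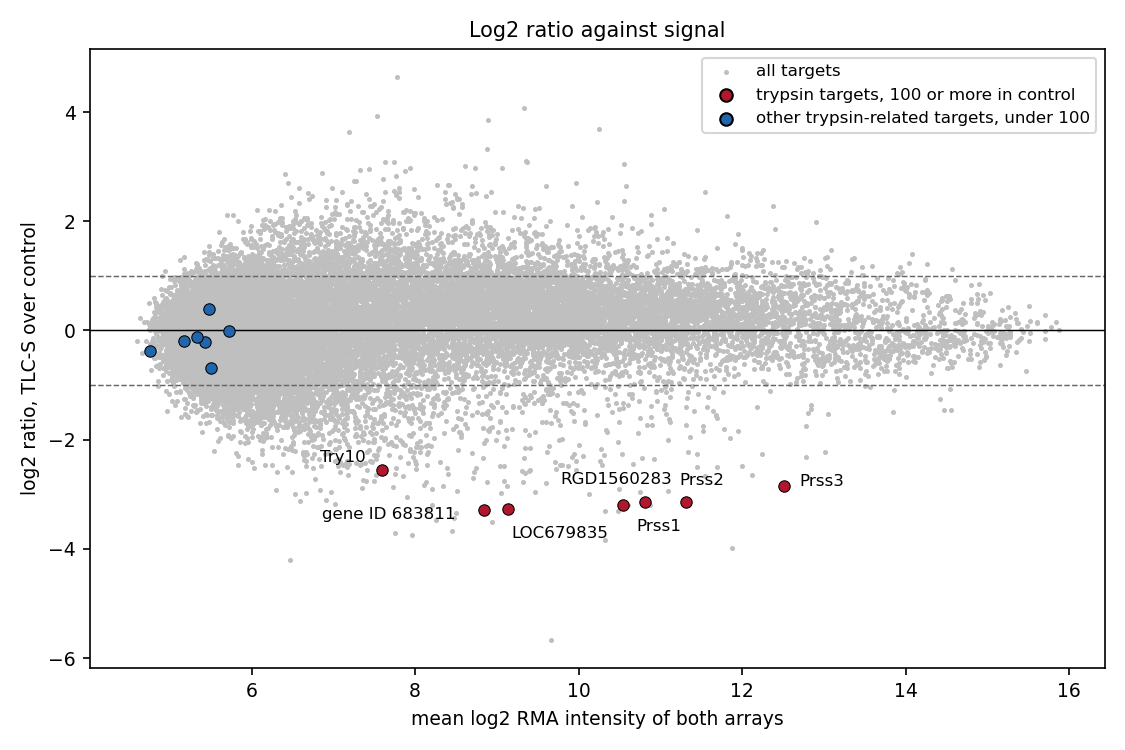
Log2 ratio of TLC-S over control against the mean log2 RMA intensity of both arrays for all 26419 targets (grey), with 7 trypsin targets in red and 7 trypsin-related targets under 100 in blue; dashed lines mark 2-fold. The red points lie along the lower edge of the cloud between -3.29 and -2.56, and the blue points lie between -0.68 and 0.39 at the dim end.

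The authors' annotation of listed targets titles 3 further predicted records as trypsins. They were found by title, not by value, though only targets at 100 or more on both arrays carry titles. RGD1560283, titled as similar to trypsinogen 8, gave 4492 in control and 493 with TLC-S, 9.11-fold lower. LOC679835, titled as similar to anionic trypsin II, gave 1736 and 181, 9.58-fold lower. The third, with the same title and the gene ID 683811, gave 1440 and 147, 9.81-fold lower. With these added, 7 of 10 targets were at least 2-fold lower, against 6.8% of all targets. The 3 could enter only at 100 or more on both arrays. Of all predicted records at that level 5.68% were at least 2-fold lower and 9.03% higher. The authors' deposited table of lower targets lists 6 trypsin targets, Prss1, Prss2, Prss3 and these 3, out of 498. Their deposited table of 1124 higher targets lists 0. Both tables hold values of the same 2 arrays, so these counts follow from the ratios above and are not a separate check.

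The 7 trypsin targets kept the same order of intensity on both arrays, from Prss3 through Prss2, Prss1, RGD1560283, LOC679835 and 683811 down to Try10. Their ratios differed little: 6 of them lay between 7.21-fold and 9.81-fold lower, a span of log2 ratios from -3.29 to -2.85. Within these 6 the fold was smaller the brighter the target was in control. Try10, at 5.88-fold, was the exception, and its TLC-S intensity was 1.97 times that of random probes. When the intensity of random probes was subtracted from each array, an alternative chosen after the values were seen, Try10 was 10.8-fold lower and the other targets 7.33-fold to 13.1-fold lower. Trypsin transcripts are alike in sequence, the probes were not used here, and how far 1 transcript was read by several targets was not tested. The 7 targets are thus not 7 separate measurements.

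**Figure D3:**
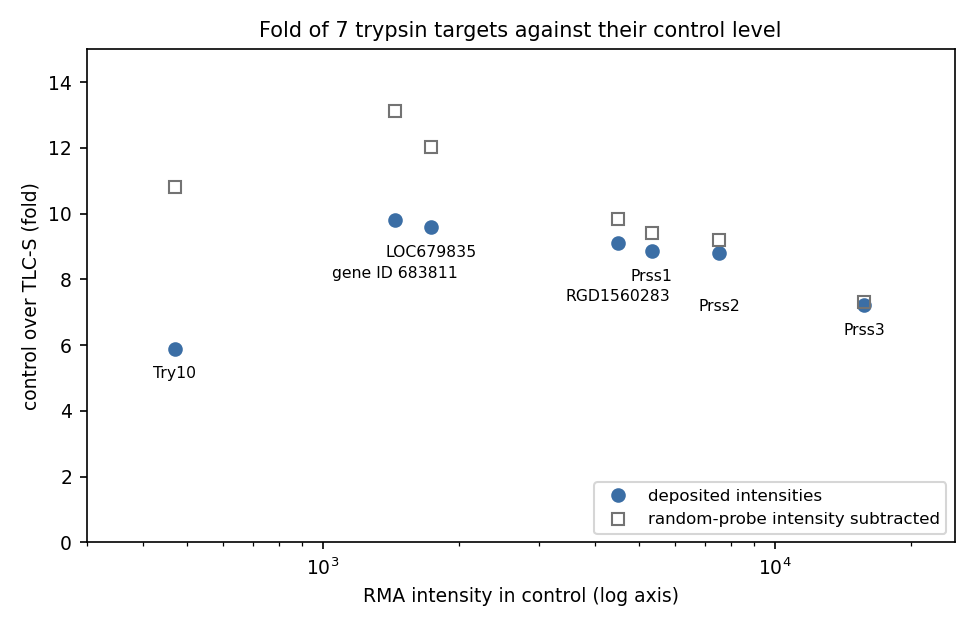
Fold (control over TLC-S) of the 7 trypsin targets against their RMA intensity in control (log axis), from the deposited intensities (filled circles) and after subtraction of the random-probe intensity of each array (open squares). From 683811 to Prss3 the fold of deposited intensities goes from 9.81 to 7.21, and Try10 lies at 5.88 before and 10.8 after subtraction.

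In RefSeq's gene table (GRCr8), from which only names and order were taken, the trypsin genes of the rat lie on chromosome 4 in 2 stretches with 14 V segments between them. The first stretch runs from Prss58 to Prss3b and the second from Prss3 to Prss1. All 4 measured genes of the second stretch, Prss3, Try10, Prss2 and Prss1, reached 100 in control and lost at least 2-fold in TLC-S. The 4 measured genes of the first stretch, Prss58, Prss59, 1810009J06Rikl and Prss3b, were under 100 on both arrays, between 30.9 and 57.3 in control and between 23.7 and 52.8 in TLC-S. Prss3b, which encodes the cationic trypsinogen of the rat and also carries the older name Prss3, gave 53.1 and 52.8. The lower trypsins that could be placed all lay on one side of the V segments. The first-stretch genes were near the random probes in control (44.7), where a fall could not be seen. The 2 stretches thus differ in detection in control, and whether they differ in response was not tested. The 3 predicted records have no place in the gene table. Of the 10 nearest measured genes before the first stretch, 5 were at 100 or more in control, and 0 were at least 2-fold lower and 1 higher. Of the 10 after the second stretch, 1 was lower and 1 higher. The lower one, Sval2, was at 75.6 and 31.3, under 100 on both arrays. This comparison by position was chosen after the values were seen.

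**Figure D4:**
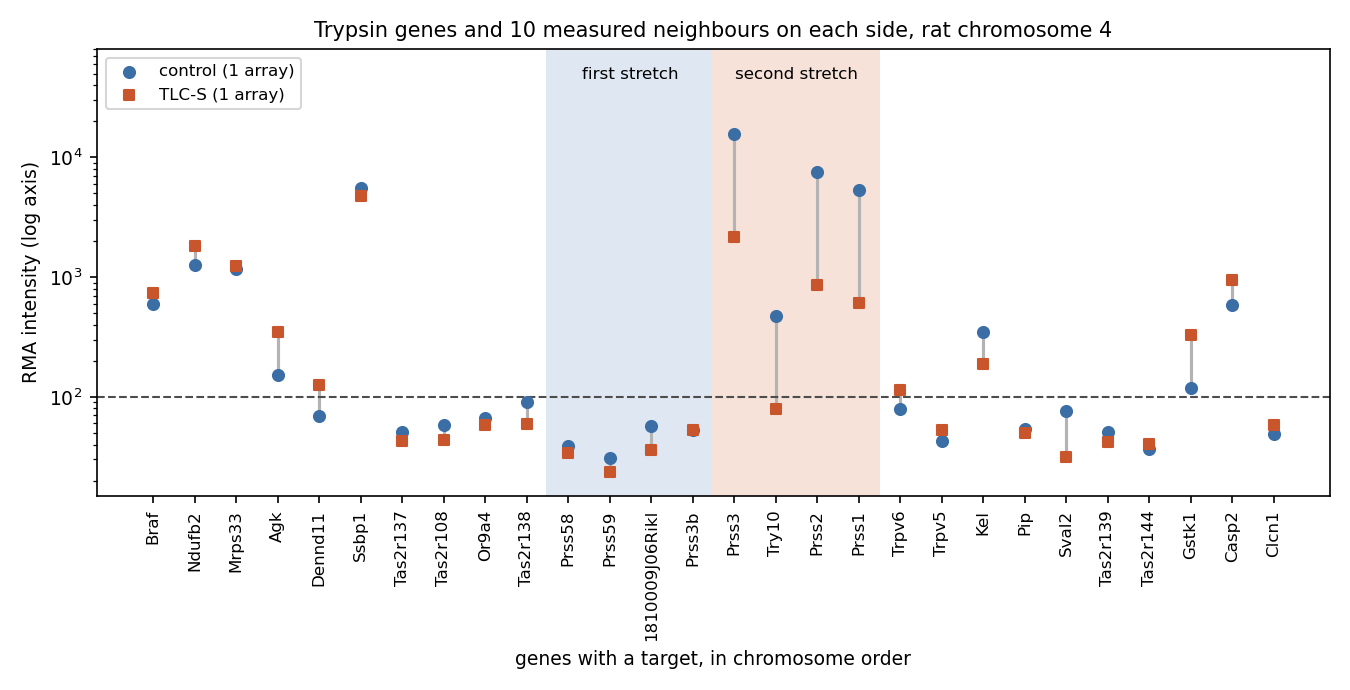
RMA intensity (log axis) in control (circles) and TLC-S (squares) of the trypsin genes with a target and the 10 measured neighbours on each side, in order along rat chromosome 4. The 4 genes of the second stretch lie between 470 and 15742 in control with TLC-S values well below, while the 4 genes of the first stretch lie under 100 on both arrays.

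The promoters of Prss1 and Prss2 are printed because both curated genes were lower in TLC-S, a choice made from their values. That of Prss3b is printed because it lies in the same cluster and stayed at background. Each run is the 250 bases before the gene's start in RefSeq (GRCr8), read 5′ to 3′ on the gene's strand. Capitals mark the TATA box motif TATAAA and the E-box CACCTG, both searched on either strand. Each printed promoter, that of Prss3b included, holds both motifs. Prss1 is at chr4:71330999-71331248 on the plus strand, Prss2 at chr4:71244714-71244963 on the plus strand and Prss3b at chr4:70842193-70842442 on the minus strand.
Prss1: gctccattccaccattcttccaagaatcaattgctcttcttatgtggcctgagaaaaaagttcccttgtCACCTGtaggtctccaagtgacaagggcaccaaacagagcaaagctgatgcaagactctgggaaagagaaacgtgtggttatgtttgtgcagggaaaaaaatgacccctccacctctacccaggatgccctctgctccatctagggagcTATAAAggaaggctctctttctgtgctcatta
Prss2: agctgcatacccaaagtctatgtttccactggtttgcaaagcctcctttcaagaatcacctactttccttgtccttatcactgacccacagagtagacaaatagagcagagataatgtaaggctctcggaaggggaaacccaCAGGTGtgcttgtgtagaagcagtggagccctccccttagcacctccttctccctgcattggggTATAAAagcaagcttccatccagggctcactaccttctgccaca
Prss3b: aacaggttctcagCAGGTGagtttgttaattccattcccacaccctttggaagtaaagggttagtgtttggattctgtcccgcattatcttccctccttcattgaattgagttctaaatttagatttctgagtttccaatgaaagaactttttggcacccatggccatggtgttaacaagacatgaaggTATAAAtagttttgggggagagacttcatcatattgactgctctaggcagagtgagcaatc

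Promoters were found for 6 of the 9 members and for 5 genes of the second stretch (Try5, Prss2, LOC102554637, Prss2l1 and Prss1). Of these 5, only Prss1 and Prss2 were matched to a target. Whether the 3 predicted trypsin records read any of the others was not tested. The promoters of Prss3 and Try10 were not analysed here, so the counts below do not describe the lower genes as a group. TATAAA was in all 5, against 12.9% of all 33469 promoters, and began 32 bases before the start of Prss1 and 44 bases before that of Prss2. CACCTG or its complement CAGGTG was also in all 5, against 15.9%. It began 181 bases before the start in Prss1 and 108 in Prss2. An E-box of this kind is part of the site that the acinar factor PTF1 is known to bind. Of 4 promoters in the first stretch, 2 held each of these motifs. TGGGAA or TTCCCA, the form of the part of that site bound by RBPJ, was in 2 of 5 and 3 of 4, against 22.1%. The GATA-type motif AGATAA or TTATCT was in 2 of 5 and 2 of 4, against 10.3%. AAGGTCA or TGACCTT, the type bound by NR5A2, was in 0 of both, against 3.99%. The general E-box CANNTG, which includes CACCTG, was in all of both, against 65.5%. Among members outside the trypsin family, Ctrc held TATAAA, 36 bases before its start, and Tmprss15 and Spink1 did not. CACCTG or CAGGTG was in none of these members' promoters. Spink1 held TGGGAA or TTCCCA and the GATA-type motif, which Ctrc and Tmprss15 lacked. Aligned end to end, promoters of the second stretch shared 59.6% to 77.6% of bases in 10 pairs, and the 56 other pairs among these trypsin genes, Ctrc, Tmprss15 and Spink1 shared 42.0% to 60.4%. These matches describe sequence and do not show that a factor was bound.

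Other acinar products lay near the random probes on both arrays. Of 17 measured enzymes and zymogens, which include chymotrypsins, elastases, carboxypeptidases, amylase and lipases, 0 reached 100 on both arrays, and the brightest in control, Klk1, a kallikrein, gave 166. Klk1 gave 78.7 in TLC-S, at least 1.66-fold lower, and Clps, the cofactor of pancreatic lipase, gave 117 and 83.3. The 17 had a median intensity of 55.3 in control, of 54.5 with TLC-S, and a median log2 ratio of -0.25. For all 15577 named genes it was 0.15, but 65.3% of those reached 100 on both arrays, so the levels compared are unlike. By measured ratio 1 of the 17, Klk1, was at least 2-fold lower and 1 at least 2-fold higher, against 5.37% and 8.67% of all named genes. The higher one, the chymotrypsinogen gene Ctrb1, was under 100 on both arrays (32.3 and 67.4). The 8 measured zymogen granule proteins were all under 100 on both arrays, from 30.1 to 74.7 in control and from 41.2 to 68.6 in TLC-S.

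Among 9 measured transcription factors of the acinar lineage, 5 reached 100 on both arrays. By measured ratio 0 of the 9 were at least 2-fold lower and 2, Gata4 and Foxa2, at least 2-fold higher, against 5.37% and 8.67% of all named genes. Ptf1a, which drives acinar enzyme genes, gave 26.5 in control and 49.3 in TLC-S, under 100 on both, as was Foxa2 at 37.5 and 81.1. Gata4 gave 97.3 and 205, at least 2.05-fold higher. Bhlha15, which shapes the secretory state of acinar cells, gave 1227 and 1056, and Xbp1, a factor of secretory cells in general, gave 7644 and 8854. The median log2 ratio was 0.59 over the 9, beside 0.15 for all named genes, and 0.21 over the 5 that reached 100 on both arrays, beside 0.25 for all such targets.

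The cathepsins were bright on both arrays. Ctsb, which can activate trypsinogen, gave 4845 in control and 5376 in TLC-S, a log2 ratio of 0.15. Ctsl, whose product can inactivate trypsinogen, gave 2294 and 1168 (log2 ratio -0.97). Ctsd gave 1445 and 909 (-0.67) and Ctss 4762 and 2753 (-0.79), lysosomal proteases both. Ctsc, a dipeptidyl peptidase, gave 559 and 1271 and was the only one of the 5 past 2-fold, 2.27-fold higher. The background for named genes at 100 or more on 1 array or both was 11.4% at least 2-fold higher and 6.18% lower.

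Of 9 measured protease inhibitors other than Spink1, 1 was at least 2-fold lower by measured ratio and 0 higher, against 5.37% and 8.67% of all named genes. The lower one, Serpina1, an inhibitor of serine proteases, gave 135 and 59.4 and was thus at least 1.35-fold lower. Spint2, a Kunitz-type inhibitor of serine proteases, has 2 targets. The brighter gave 6144 and 3812 (log2 ratio -0.69), while the other had a log2 ratio of 0.02. Serpinb6, an intracellular serpin, gave 71.6 and 119.6, at least 1.20-fold higher. The 4 receptors that trypsin-like proteases activate, among them F2rl1, were under 100 on both arrays. F2r gave 30.4 and 39.1, F2rl1 33.0 and 54.3, F2rl2 48.9 and 32.3, and F2rl3 58.8 and 45.3.

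Of 31 other serine proteases measured, 8 were at 100 or more on at least 1 array. By measured ratio 4 of these 8 were at least 2-fold lower and 0 higher, against 6.18% and 11.4% of named genes at that level. Of the 4, Klk1c9, Klk6 and F2 reached 100 in control alone, which fixed their direction. Klk1c9, a kallikrein of the rat, gave 881 in control and 90.3 in TLC-S, at least 8.81-fold lower. Klk7, a kallikrein with chymotrypsin-like activity read by a predicted record, gave 2625 and 584, 4.49-fold lower. Klk6 and F2 were the other two past 2-fold by measured ratio, but their bounds of at least 1.83-fold and at least 1.11-fold do not reach it. St14, the membrane protease matriptase and the brightest of the list on both arrays, gave 4571 and 4883. The median log2 ratio over the 31 was -0.16.

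**Figure D5:**
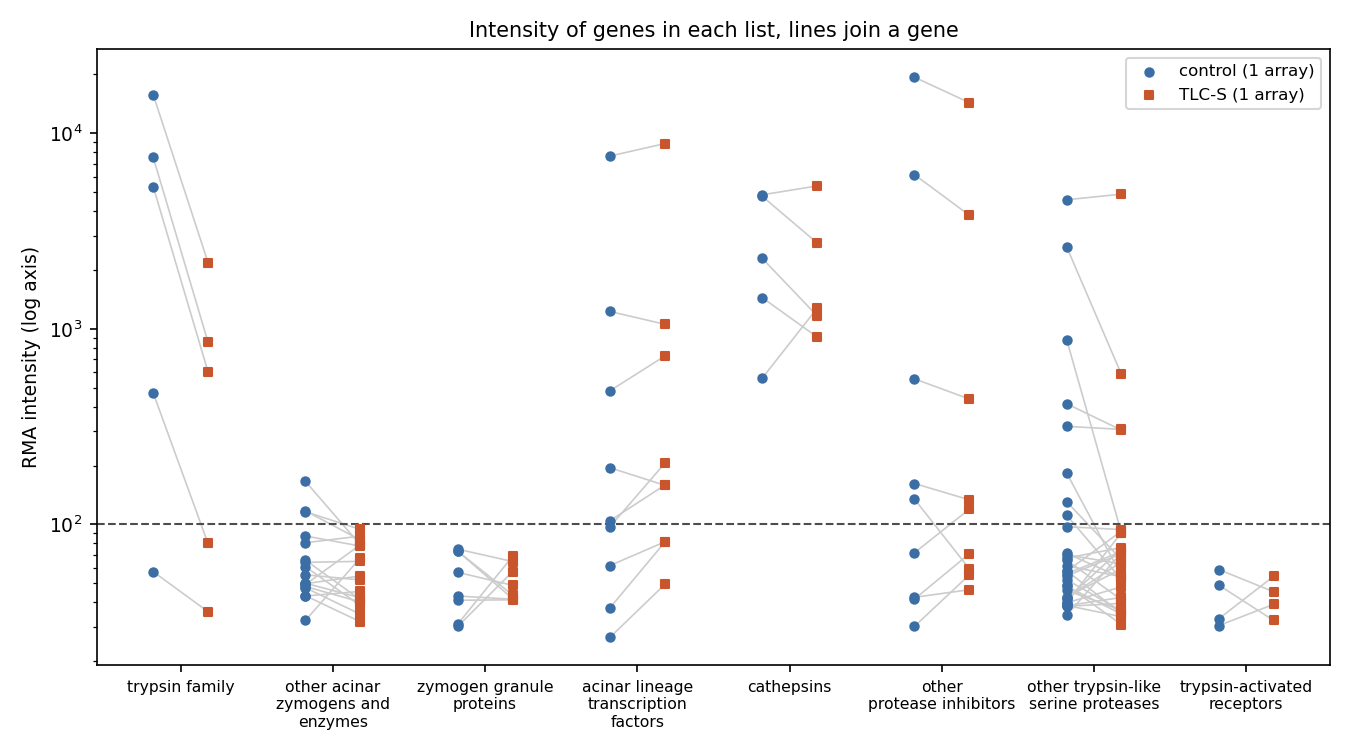
RMA intensity (log axis) of every measured gene of 8 lists in control (circles) and TLC-S (squares), with a line joining the 2 values of a gene and a dashed line at 100. The 4 bright trypsins share a steep fall, the other acinar enzymes, the granule proteins and the receptors lie near or under 100, and the 5 cathepsins stay at 559 or more on both arrays.

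The genes outside these lists with the most like pattern were named by distance from the mean of Prss1, Prss2 and Prss3 in log2 intensity on both arrays, a measure over 2 arrays only. Unnamed targets and symbols that begin with LOC, RGD or MGC were left out, so nearer targets may exist among them. Dnah14, a dynein heavy chain gene read by a predicted record, was nearest, with 6099 in control against 1270 after TLC-S (4.80-fold lower). Chchd10 followed with 4621 and 1401, Scand1 with 4392 and 858, Lce1e with 5642 and 1909, and Ddit3, a stress-induced transcription factor, with 5329 and 1908. These 5 were 2.79-fold to 5.12-fold lower, each less than Prss1, Prss2 or Prss3.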

How the data were processed

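Double-stranded cDNA made from total RNA carried the dye Cy3 and was read on NimbleGen arrays, per the labels' protocols. For each target and array the authors deposited an intensity on a linear scale, made with RMA (no version stated) per the submitters' processing notes. No source used here gave the background correction, the scanner settings or the genome build. Per the file headers, the authors' tables of higher and lower targets hold a fold (a linear ratio) beside the log2 ratio. Nearly all targets (26368 of 26419) were read by 5 probes. The series values equalled the sample files.

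Log2 ratios are of TLC-S over control. Targets were named by RefSeq accession (9747), then gene ID (4950), then the authors' symbol (1644), with the gene table of GRCr8, and 10078 stayed unnamed. A gene with several targets took the brightest. Members, lists and alternatives were chosen with earlier results of these data known. Named genes are all members, the 2 largest absolute ratios of each list among genes at 100 or more on an array, all genes of lists of up to 5, and the 5 most alike genes. One gene that meets this rule is not reported here. Other genes were named after their values were seen, among them the further predicted trypsin records, Bhlha15, Xbp1, Ptf1a, Foxa2, St14, Klk6 and F2. No test was run, and the precision is limited by 1 array per group. Ratio and loess steps were tested on simulated data. Promoters were aligned globally (match 1, mismatch -1, gap opening -3 and extension -1). There were 0 unmapped columns of array values. Python 3.11.15, numpy 2.4.6, pandas 2.3.3, statsmodels 0.14.6, biopython 1.88 and matplotlib 3.10.9 were used.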

Additional observations from a re-analysis of the deposited data

How the results depend on the processing

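No paired analysis was possible because there was a single array per group, so no replicate could be left out either. The settings tried were the series values, the authors' table of all targets, centring on the median, a loess curve on signal taken off the log2 ratios (span 0.3, 3 robust iterations), an offset of 50, the limit of 100 on both arrays, curated records only, thresholds of 1.5-fold and 3-fold, and for genes with several targets their mean or the dimmest. The series values repeat the main values, and for genes with 1 target so does the choice of target. For counts and medians the authors' table repeats the limit of 100 on both arrays. Not all of the values counted next could therefore differ. Counts of lower and higher members and list medians kept within 1.5 times, or within 0.42 log2 units, in 86 of 87 alternative values. The exception, chosen after the data were seen, is the addition of the 3 predicted trypsin records, which by construction gave 7 lower targets in place of 4. Over all settings the log2 ratio of Prss1 ran from -3.42 to -3.04, that of Prss2 from -3.39 to -3.07 and that of Prss3 from -3.01 to -2.80. Try10 moved most, from -2.56 to -2.00 with the offset and to -3.43 with random probes subtracted; its TLC-S intensity was 1.97 times that of random probes. The target of gene ID 683811 moved to -3.72 with random probes subtracted.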

Other observations

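The kallikreins, serine proteases related to trypsin, were looked at as a family after the values of Klk1c9 and Klk7 were seen. Of 10 kallikrein genes with a target, 6 were at 100 or more on at least 1 array, and each of these 6 had a lower value in TLC-S. Of the 6, 4 (Klk1, Klk1c8, Klk1c9 and Klk6) reached 100 in control alone, so that their inclusion fixed the direction, and nothing is read from their count. Besides Klk1c9, Klk7, Klk6 and Klk1, the 6 were Klk1b3, with 586 in control against 135 after TLC-S (4.35-fold lower), and Klk1c8, with 168 and 53.0 (at least 1.68-fold lower). The other 4, Klk10, Klk1c12, Klk1c2 and Klk4, were under 100 on both arrays. Kallikreins of the rat are alike in sequence, and how far targets read each other's transcripts was not tested.

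Of 3898 targets at 1000 or more in control, 58 were at least 5-fold lower in TLC-S and 1 at least 5-fold higher, limits that were chosen after the data were seen. Of the 58 lower targets, 50 (86.2%) came from predicted records, against 57.0% of the 3898, and 6 were trypsin targets. Only 8 came from curated records, and Prss1 and Prss2 were 2 of them. The other 6 include genes of other tissues. The olfactory receptor genes Or2r3b (4723 in control, 516 in TLC-S) and Or2y1c (1651 and 279) were among them, as were the sperm protamine Prm1 (2047 and 296) and the steroid enzyme Hsd3b5 (1035 and 171). Hopx (3958 and 529) and Cldn14 (2061 and 374) complete them. Or2r3b was 9.15-fold lower, as much as Prss1 at 8.85-fold.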
